A study of Mus musculus with 18 samples.

Results

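The genes described here are 39 genes of the cell cycle and DNA replication, chosen by symbol from the 54532 genes of the deposited count tables, and all 39 were found there and had enough reads to be tested in every comparison. They were read in 4 roles. The replication core has 9 genes (Mcm2 to Mcm7, Pcna, Rrm1 and Rrm2), origin licensing and thymidylate synthesis has 4 (Cdc6, Cdt1, Gmnn and Tyms), the G1/S and S phase regulators are 4 (E2f1, Ccne1, Ccne2 and Ccna2), and 22 genes act mostly in mitosis. The study sequenced polyadenylated RNA from 18 mouse libraries in C57BL/6 mice. In the colitis arm, mice drank 2.5% dextran sulphate sodium (DSS) for 5 days and plain water for 2 days, and a 0.5 cm piece of distal colon was taken from Il1f5+/+ (3 libraries), Il1f5-/- (3), Il1f9+/+ (2) and Il1f9-/- (2) mice. In the tumour arm, colorectal tumours from the AOM/DSS model (the carcinogen azoxymethane with DSS) were taken from the same 4 genotypes, 2 libraries each. Every group therefore had DSS and there was no untreated colon. Il1f5 encodes the antagonist of the IL-36 receptor and Il1f9 encodes IL-36 gamma, an agonist of it. Ages, how the alleles were made and whether wild-type and knockout mice were littermates are not given in the sources used here, and the labels do not tie libraries to separate animals, so p-values measure the spread between these libraries.

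Cells copy their DNA in S phase with a helicase built from the Mcm2 to Mcm7 proteins, which Cdc6 and Cdt1 load onto origins in G1, while geminin (Gmnn) blocks a further loading. E2F factors, with cyclin E (Ccne1, Ccne2), drive the entry into S phase and the transcription of replication genes. Mitosis genes such as Ccnb1, Cdk1, Plk1 and Aurkb peak later, in G2 and M, when the DREAM complex has left their promoters and B-Myb and Foxm1 are bound. In the colon the cells that divide are mainly those of the lower crypt, and crypts are lost and rebuilt around a bout of DSS colitis.

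The promoters of 4 mitosis and 4 replication genes are shown because these genes carry the comparisons that follow; they were chosen with their letters known, including some that lack the letters common in their role, and are no sample of the roles. RefSeq's promoter table (GRCm38.p6) matched 31 of the 39 genes by symbol; Kif20a, Aurkb, Ccne2, Ccna2, Mcm4, Tpx2, Gmnn and Foxm1 were not matched. Each stretch runs from 120 bases before to 30 bases after the start of the gene, 5′ to 3′ on the gene's strand: Cdk1 at chr10:69352883-69353032 on the minus strand, Cdc20 at chr4:118437314-118437463 on the minus strand, Plk1 at chr7:122159315-122159464 on the plus strand, Birc5 at chr11:117849117-117849266 on the plus strand, Mcm2 at chr6:88898751-88898900 on the minus strand, Mcm5 at chr8:75109389-75109538 on the plus strand, Pcna at chr2:132253151-132253300 on the minus strand and Rrm1 at chr7:102441575-102441724 on the plus strand. The start is the one in RefSeq's promoter table. Capitals mark matches on either strand. The letters TTTGAA belong to the cell cycle homology region (CHR) of mitosis genes, and its other form searched here was TTTAAA, which reads alike on both strands. The box searched for NF-Y was CCAAT, which appears reversed and complemented as ATTGG where it lies on the other strand. For E2F the letters searched were TTCCCGC in its first form and, as a further form, TTGGCGC; no searched word contains another, though neighbouring matches can share bases.
Cdk1: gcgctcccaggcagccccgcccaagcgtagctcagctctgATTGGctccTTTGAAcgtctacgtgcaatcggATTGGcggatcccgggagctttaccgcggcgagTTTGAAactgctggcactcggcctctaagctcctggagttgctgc
Cdc20: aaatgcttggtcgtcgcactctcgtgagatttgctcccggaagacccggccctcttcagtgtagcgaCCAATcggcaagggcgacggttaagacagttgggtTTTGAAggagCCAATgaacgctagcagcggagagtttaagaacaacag
Plk1: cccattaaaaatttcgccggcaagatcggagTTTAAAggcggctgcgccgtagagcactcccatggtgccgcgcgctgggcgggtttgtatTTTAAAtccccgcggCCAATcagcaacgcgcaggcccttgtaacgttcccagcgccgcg
Birc5: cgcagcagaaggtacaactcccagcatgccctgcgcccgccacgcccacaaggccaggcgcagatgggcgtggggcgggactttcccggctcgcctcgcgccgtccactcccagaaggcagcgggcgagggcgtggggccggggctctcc
Mcm2: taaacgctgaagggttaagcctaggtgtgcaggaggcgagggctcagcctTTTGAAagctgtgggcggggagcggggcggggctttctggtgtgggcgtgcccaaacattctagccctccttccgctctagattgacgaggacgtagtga
Mcm5: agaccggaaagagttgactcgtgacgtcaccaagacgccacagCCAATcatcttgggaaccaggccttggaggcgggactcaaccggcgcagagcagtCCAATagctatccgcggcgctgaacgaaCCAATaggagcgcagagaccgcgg
Pcna: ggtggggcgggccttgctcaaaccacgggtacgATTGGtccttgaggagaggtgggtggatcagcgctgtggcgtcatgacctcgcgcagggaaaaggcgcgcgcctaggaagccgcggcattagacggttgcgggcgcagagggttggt
Rrm1: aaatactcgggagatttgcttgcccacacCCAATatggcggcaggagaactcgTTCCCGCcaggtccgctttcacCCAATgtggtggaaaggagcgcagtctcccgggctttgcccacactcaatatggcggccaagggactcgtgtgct

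Over the whole 300 bases of each table entry, TTTGAA or TTTAAA was in 16 of 18 matched mitosis promoters, 3 of 8 matched replication core promoters, 0 of 3 licensing and 1 of 2 G1/S promoters, beside 27.8% of all 27025 promoters in the table. TTTGAA alone was in 13 of 18 mitosis promoters and in 1 of 8 replication promoters, against 18.1% of all. TTCCCGC or TTGGCGC was in 5 of 8 replication, 3 of 18 mitosis, 2 of 3 licensing and 0 of 2 G1/S promoters, against 6.93% of all. CCAAT was in 8 of 8 replication, 16 of 18 mitosis, 0 of 3 licensing and 0 of 2 G1/S promoters, against 37.9% of all. Of those shown, neither E2F form was found in the 300 bases of Mcm2 and Pcna, and the Mcm5 matches to TTGGCGC lie outside the stretch shown. Birc5 had no TTTGAA or CCAAT, and its 1 match to TTTAAA lies outside the stretch shown. These matches describe letters in a fixed window and are not shown to be bound.

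Per length, Pcna, the sliding clamp of the DNA polymerases, had the highest level of the 39 genes, with a median of 64.1 FPKM over the 18 libraries (fragments scaled to gene length and library size, the authors' values; range 27.5 to 112). Plk1, a mitotic kinase, followed with a median of 31.6 FPKM. Cenpf, a kinetochore protein, had the lowest level, with a median of 1.89 FPKM. All other values here are counts scaled to library size (CPM) with TMM scaling over all 18 libraries, or log2 differences fitted with edgeR, each given with its standard error; a gene is called where the adjusted p was below 0.05 over all genes tested. The libraries held 16621611 to 23776174 counts, with 2.01% to 3.56% from mitochondrial genes.

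Il1f5 reads were found only in libraries labelled Il1f5-/-. Il1f5 had 0 counts in the other 13 libraries, wild type and Il1f9 line, which allows up to 3 counts in each. It had 36, 43 and 45 counts in the colitis libraries labelled Il1f5-/- and 211 and 102 in the tumour libraries so labelled, so every direction given for this line refers to libraries by their label. Il1f9 followed its label: 232 and 90 counts in the colitis wild types of its line against 9 and 1 in the Il1f9-/- libraries, and 1652 and 752 against 2 and 0 in tumours. The kit does not keep strand, so reads from a gene and an overlapping antisense gene cannot be told apart. Pcna, Tyms, Ccnb1 and Ccnb2 have pseudogene copies listed under their own symbol in the tables, none with more than 46 counts in a library. Copies listed under other names were not searched for.

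The Il1f9-/- tumour libraries 1 and 2 stood apart from each other more than any other pair of one group, with a chi-square per gene of 95.5 against 6.19 to 39.1 for the other pairs. Library 2 had 768 CPM of smooth muscle markers and 1937 CPM of fibroblast markers, where library 1 had 67.6 and 705 CPM and the 6 other tumours had 83.8 to 293 and 867 to 1287 CPM. Comparisons that include this group are given with and without each of the pair where their count moved. Other comparisons fitted with all tumours took their spread partly from this pair and were not refitted without 1 of its libraries.

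Most pairs of the 39 genes varied together over the 18 libraries, and the colitis library labelled Il1f5-/- number 2 was the low end for most of them. It was the lowest library for 27 genes, and the tumour library labelled Il1f5-/- number 1 was the highest for 23. As a description over 18 libraries that share depth scaling and tissue differences, the median Pearson correlation of gene pairs in log2 CPM was 0.82 within the replication core, 0.76 within mitosis and 0.72 between these roles. The lowest pair within mitosis was at -0.11 and the lowest between the roles at -0.24.

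**Figure D1:**
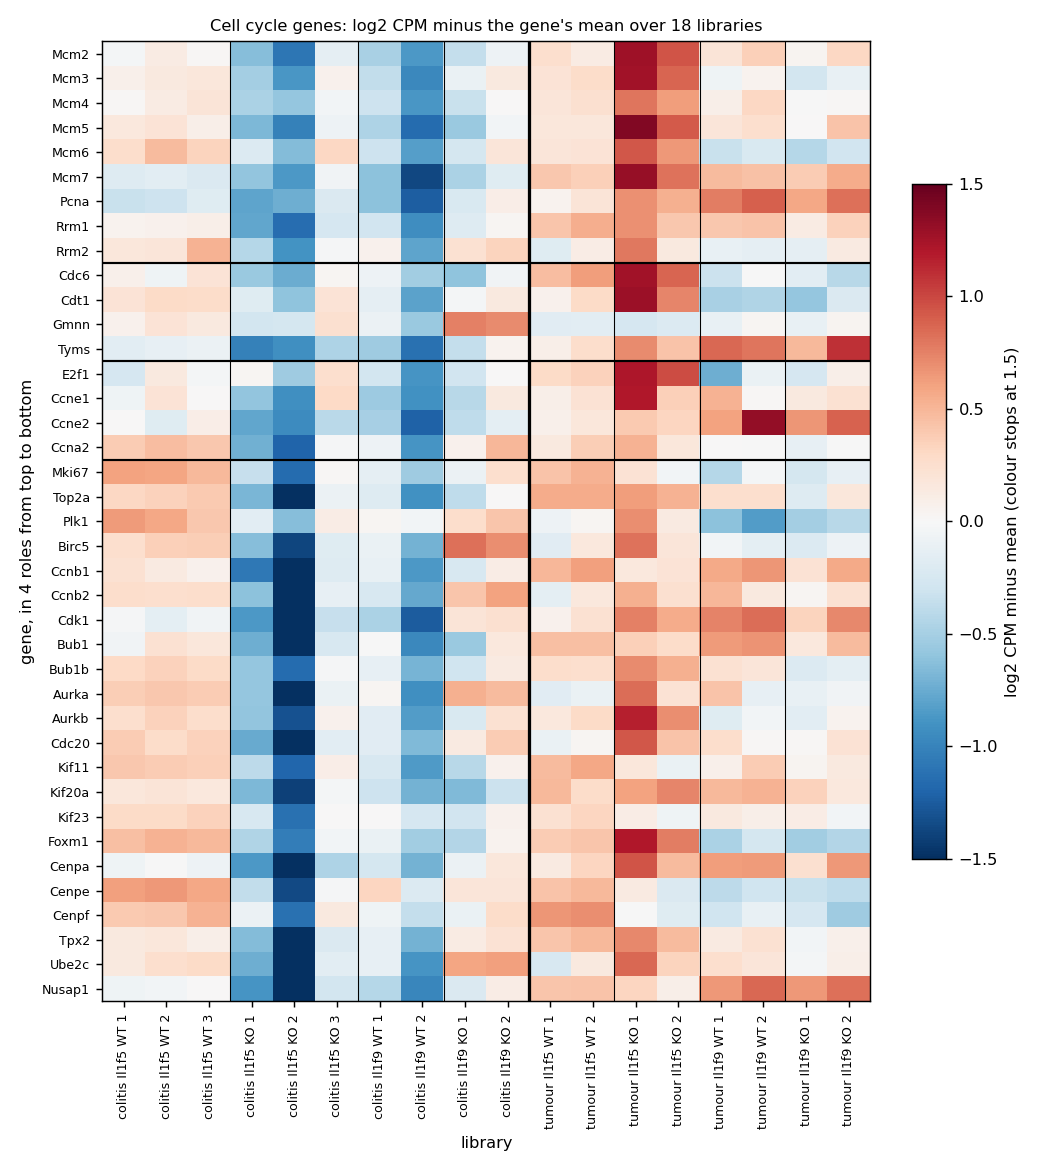
Log2 CPM of each of the 39 genes (rows, in 4 roles parted by lines) minus its mean over the 18 libraries (columns, by group; the thick line parts colitis from tumours). Colitis Il1f5 KO library 2 is blue in nearly every gene, tumour Il1f5 KO libraries 1 and 2 are red mainly in the upper, replication part, and Gmnn is red in both colitis Il1f9 KO libraries.

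In colitis, Plk1, Foxm1, Mki67, Tyms and 6 other cell cycle genes fell in the libraries labelled Il1f5-/- against Il1f5+/+. The fitted log2 differences had a median of -0.87 for the mitosis genes and -0.52 for the replication core; the difference between the roles was not tested. All 39 fitted differences were below 0, with a median of -0.77 on the log2 scale (median of all genes -0.0085). 10 genes passed the test and fell, Rrm1, Tyms, Ccne2 and 7 of the mitosis genes, where 11.0% of all genes tested were called lower. With edgeR and with DESeq2 0 rose, where 13.7% and 14.3% of all genes were called higher. With the Il1f5 labels turned, the same differences would be above 0, with a median of 0.77. The comparison asks how loss of the antagonist alters the inflamed colon, as far as the genotype labels say.

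In the replication core, Rrm1, the large subunit of the ribonucleotide reductase that makes deoxynucleotides, was at 87.0, 87.3 and 88.8 CPM in the wild-type libraries and at 48.7, 37.7 and 70.0 CPM in libraries 1 to 3 labelled Il1f5-/-. The groups did not overlap, and knockout-labelled library 3 was nearest to the wild type. Rrm1 fell by 0.75 ± 0.23 (adjusted p = 0.0425). The helicase gene Mcm2 was at 58.1, 64.7 and 60.1 CPM against 37.9, 28.0 and 53.9 CPM, a difference of -0.61 ± 0.21 that did not pass (adjusted p = 0.0597), nor did that of Mcm4 at -0.46 ± 0.17 (adjusted p = 0.0711). The replication core had a median of -0.52, and 6 of its 9 genes were lower without overlap between the groups, as were 22.3% of all genes tested. Pcna overlapped, with 122, 125 and 136 CPM against 89.5, 93.2 and 133 CPM (-0.28 ± 0.19, adjusted p = 0.303).

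Among licensing and G1/S genes, Tyms, thymidylate synthase, was at 32.5, 33.4 and 34.3 CPM in the wild type and at 18.04, 19.2 and 26.4 CPM in libraries labelled Il1f5-/-, and fell by 0.66 ± 0.18 (adjusted p = 0.0244). Ccne2, a cyclin E, was at 11.7, 10.2 and 12.5 CPM against 6.74, 6.00 and 8.79 CPM and fell by 0.68 ± 0.21 (adjusted p = 0.0345). Neither gene overlapped between the groups. E2f1, the factor that drives the entry into S phase, had a difference of -0.01 ± 0.22 (adjusted p = 0.979), with 9.87 to 13.1 CPM in the wild type and 8.15 to 14.1 CPM in the knockout-labelled libraries. Ccne1 had -0.37 ± 0.28 (adjusted p = 0.37) and also overlapped.

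The 22 mitosis genes were all below 0 and without overlap between the groups (22.3% of all genes were so), with a median of -0.87, and 7 of them passed the test and fell. Plk1 was at 101, 97.5 and 86.3 CPM in the wild type and at 58.5, 41.7 and 70.4 CPM in libraries labelled Il1f5-/-. The lowest wild-type library was above the highest knockout-labelled library, and Plk1 fell by 0.74 ± 0.15 (adjusted p = 0.00866). Foxm1, a transcription factor of G2 genes, was at 32.7, 34.3 and 33.5 CPM against 17.4, 11.6 and 23.2 CPM and fell by 0.95 ± 0.23 (adjusted p = 0.0159). Mki67, the Ki-67 antigen of cycling cells, was at 252, 249 and 232 CPM against 130.4, 74.6 and 168 CPM. The wild-type libraries were close together and the others far apart, and Mki67 fell by 0.97 ± 0.26 (adjusted p = 0.0309). Cenpe, a kinetochore motor, had the largest fall at 1.10 ± 0.29 (adjusted p = 0.0277). Birc5 (survivin, of the chromosomal passenger complex) fell by 0.99 ± 0.27 (adjusted p = 0.0314), Cdc20, an activator of the anaphase-promoting complex, by 1.05 ± 0.31 (adjusted p = 0.0428), and Cenpa, the centromeric histone, by 0.87 ± 0.26 (adjusted p = 0.0414).

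The size of this count rested on single libraries. Without knockout-labelled library 3, 36 genes were called lower (2537 of all 18253 genes tested then were), and without knockout-labelled library 2, 8 were. Leaving out knockout-labelled library 1 left 1 call, and leaving out wild-type library 1, 2 or 3 left 2, 1 and 2. Of all genes 1025 of 18166 were lower without knockout-labelled library 2 and 1085 of 18157 without library 1. Without wild-type library 1, 2 or 3, 826 of 18206, 856 of 18261 and 1386 of 18210 were. Plk1 was the only gene called lower in every such fit. The mean log2 CPM of the 22 mitosis genes was 5.69 ± 0.01 (SD, n = 3) in the wild type and 4.72 ± 0.64 (SD, n = 3) in libraries labelled Il1f5-/-, where library 2 had 4.04 and library 3 had 5.30. Replication minus mitosis was 0.49 ± 0.04 against 0.88 ± 0.27 (SD, n = 3 each).

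Markers of other cell types moved with these genes, and their part in the result was not tested; in bulk tissue, fewer cells of a type and less RNA per cell cannot be told apart. The summed CPM of 6 smooth muscle markers was 1866 to 2096 in the wild type and 3048 to 4452 in libraries labelled Il1f5-/- (4 of 6 called higher). The 5 enteric neuron and glia markers summed to 18.2 to 28.0 against 44.9 to 75.2 CPM, and 5 of 5 were called higher. The 5 endothelial markers summed to 104 to 109 against 175 to 233 CPM (5 of 5 higher) and the 6 fibroblast markers to 1681 to 1862 against 2674 to 2866 CPM (5 of 6 higher). The 8 epithelial markers summed to 13018 to 13874 against 10494 to 12258 CPM (2 of 8 lower). Sums of 5 crypt stem cell markers overlapped, at 59.1 to 67.5 and 46.5 to 69.6 CPM, as did those of the T cell, B cell, macrophage and neutrophil lists, and no marker was at 0.

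Other cell cycle genes were counted in wider lists, beside the 11.0% of all genes called lower. Of 63 other mitosis genes, 19 fell and 1 rose, with a median of -0.69. Of these, Hmmr, a spindle protein, was at -1.26 ± 0.25 (adjusted p = 0.00825) and Cep55, a protein of abscission, at -0.94 ± 0.19 (adjusted p = 0.00681). Of 52 other replication genes 5 fell, a share not above that of all genes, with a median of -0.41; among them were Cdc45 of the replicative helicase at -0.81 ± 0.25 (adjusted p = 0.0365) and Slbp at -0.45 ± 0.11 (adjusted p = 0.0133). In the list of G1 cyclins, kinases and E2F factors 9 of 18 fell, led by Ccnd1 (cyclin D1) at -1.14 ± 0.16 (adjusted p = 0.00195) and E2f2 at -0.84 ± 0.17 (adjusted p = 0.00737). Of 11 cell cycle inhibitors tested, 3 rose, where 13.7% of all genes were called higher. They were Cdkn1c (p57) at 0.93 ± 0.20 (adjusted p = 0.00838), Cdkn2d at 0.43 ± 0.13 and Rbl2, a subunit of DREAM, at 0.35 ± 0.11 (both adjusted p = 0.0354).

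**Figure D2:**
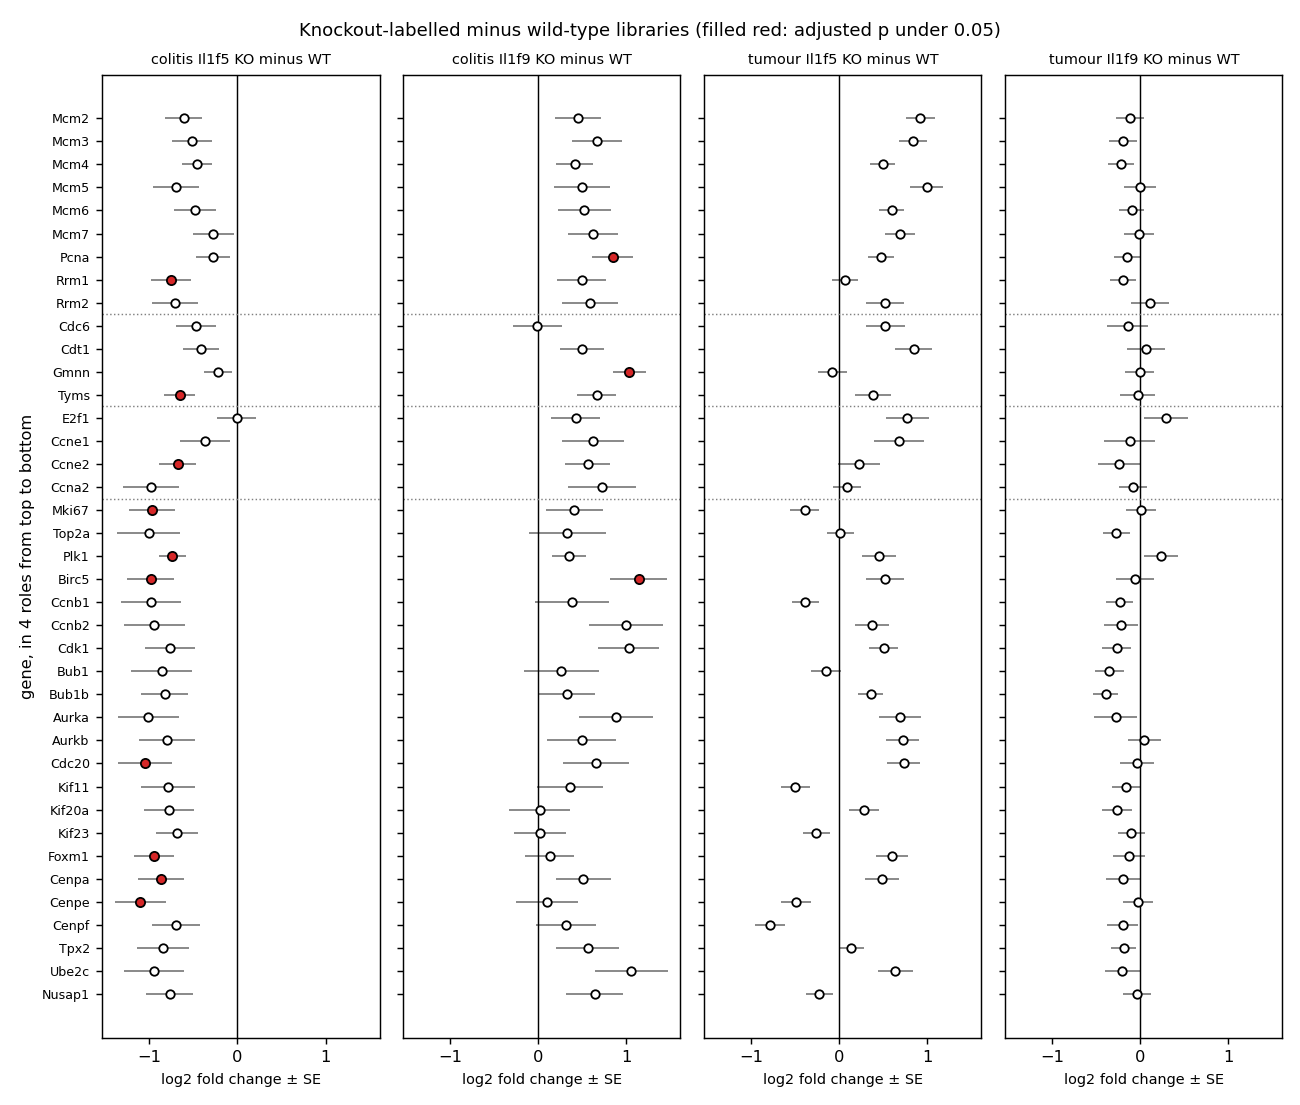
Log2 fold change ± SE of the 39 genes (vertical axis, in 4 roles parted by dotted lines) for knockout-labelled minus wild-type libraries in colitis and tumours; filled red points have an adjusted p under 0.05. All 39 points lie left of 0 in the colitis Il1f5 panel and 38 right of 0 in the colitis Il1f9 panel; the tumour Il1f5 panel has its replication points right of 0 and its mitosis points on both sides.

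In the Il1f9 line 38 of 39 genes were above 0 in Il1f9-/- colitis libraries against Il1f9+/+, with a median of 0.50 (of opposite sign to the Il1f5 line as labelled, and of the same sign with the Il1f5 labels turned). By the test 3 genes rose, Gmnn, Pcna and Birc5, where 9.59% of all genes were called higher, so the share among the 39 genes was not above the background. With edgeR and with DESeq2 0 genes fell, where 9.98% and 10.6% of all were called lower. Gmnn, which holds back a further licensing round, was at 22.6 and 16.3 CPM in the wild type and at 40.5 and 39.1 CPM in Il1f9-/-. Both knockout libraries were above both wild types and above every other library of the series. Gmnn rose by 1.03 ± 0.19 (adjusted p = 0.00411), and it was the only one of the 3 that was called in each fit that left out a library.

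Pcna was at 100.4 and 65.3 CPM in the wild type and at 131 and 166 CPM in Il1f9-/-, and rose by 0.84 ± 0.23 (adjusted p = 0.032). Mcm3 was at 42.3 and 28.0 CPM against 50.9 and 60.4 CPM, a difference of 0.66 ± 0.28 that did not pass (adjusted p = 0.132), and Mcm7 had 0.62 ± 0.29 (adjusted p = 0.167). All 9 replication genes were above 0, with a median of 0.52, and 7 were higher without overlap between the groups, as were 30.3% of all genes tested. Tyms was at 25.1 and 16.7 CPM against 28.3 and 37.8 CPM (0.66 ± 0.22, adjusted p = 0.0563). Of the G1/S genes, E2f1 had 0.42 ± 0.27 (adjusted p = 0.308), Ccne1 0.62 ± 0.35 (adjusted p = 0.248) and Ccne2 0.56 ± 0.26 (adjusted p = 0.146).

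The mitosis genes varied more among themselves, from 0.01 for Kif20a and 0.02 for Kif23, kinesins of cytokinesis, to 1.14 for Birc5, with a median of 0.40. Birc5 was at 39.3 and 25.8 CPM in the wild type and at 75.1 and 68.4 CPM in Il1f9-/-, and rose by 1.14 ± 0.33 (adjusted p = 0.0425). Its groups did not overlap, and in colitis both knockout libraries were above all others. Cdk1, the mitotic kinase, had 1.03 ± 0.35 (adjusted p = 0.0728), Ube2c, the ubiquitin carrier of the anaphase-promoting complex, 1.06 ± 0.41 (adjusted p = 0.12), Ccnb2 (cyclin B2) 0.99 ± 0.42 (adjusted p = 0.143) and Aurka 0.88 ± 0.42 (adjusted p = 0.187). Mki67 was at 151 and 114 CPM against 156 and 197 CPM (0.41 ± 0.32, adjusted p = 0.414). Replication minus mitosis was 0.42 ± 0.04 in the wild type and 0.49 ± 0.03 in Il1f9-/- (SD, n = 2 each).

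The count rose without wild-type library 1 and fell without wild-type library 2, or knockout library 1 or 2, each time with 1 library left in a group. Over these fits Gmnn ranged from 0.81 to 1.28, Pcna from 0.56 to 1.18 and Birc5 from 0.86 to 1.47. Gene length moved with this result: over 15080 protein-coding genes the Spearman correlation of length with the log2 difference was -0.26, and over the 39 genes it was -0.53, with Gmnn the shortest at 1465 bases; its part was not tested. Markers moved as well and their part was not tested. The 3 macrophage markers summed to 115 to 168 CPM in the wild type and 27.4 to 35.1 CPM in Il1f9-/- (3 of 3 lower), the 8 epithelial markers to 9756 to 12493 against 15339 to 15484 CPM (4 of 8 higher) and the smooth muscle markers to 1354 to 2450 against 3947 to 4396 CPM (6 of 6 higher). The 6 fibroblast markers summed to 2400 to 3431 against 1219 to 1691 CPM (5 of 6 lower), the 5 endothelial markers to 150.2 to 201 against 83.4 to 97.4 CPM (3 of 5 lower) and the 3 neutrophil markers to 533 to 1101 against 193 to 244 CPM (2 of 3 lower). The 5 crypt stem cell markers overlapped at 48.9 to 81.3 and 58.7 to 61.9 CPM (2 of 5 lower). No marker was at 0.

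Of 52 other replication genes 11 rose, where 9.59% of all genes were called higher. Among them were Rfc2, of the clamp loader, at 0.83 ± 0.14 (adjusted p = 0.00284), and Rpa3, of the single-strand binding protein, at 0.95 ± 0.18 (adjusted p = 0.00509). Tipin rose by 1.01 ± 0.22 (adjusted p = 0.0101). Of 63 other mitosis genes 3 rose, a share not above that of all genes. They were Pttg1 (securin) at 0.82 ± 0.11 (adjusted p = 0.000968), Kpna2 at 0.86 ± 0.17 (adjusted p = 0.0067) and Bub3 at 0.57 ± 0.15 (adjusted p = 0.0237). Ccnd1 fell in this line too, by 0.70 ± 0.19 (adjusted p = 0.0282). It was the single call among 18 G1 genes, where 9.98% of all genes were called lower. With edgeR's test 0 of 11 inhibitors passed (5 had an unadjusted p below the threshold, as did 34.0% of all genes).

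The 2 lines' differences were tested against each other in colitis, a test that depends on the direction of the Il1f5 labels. With those labels turned, an alternative chosen after seeing the data, 1 gene was called (Gmnn, at 0.81, adjusted p = 0.0392 with edgeR), the median was -0.20, and Birc5 had 0.15 (adjusted p = 0.833). The values that follow are as labelled. The Il1f9 difference exceeded the Il1f5 difference for all 39 genes, by a median of 1.198, and 19 genes passed (12.0% of all genes were called higher and 12.8% lower, and 0 of the 39 genes were called lower). Birc5 had the largest gap, 2.12 ± 0.42 (adjusted p = 0.0101), followed by Ube2c at 2.00 ± 0.54 (adjusted p = 0.0338) and Ccnb2 at 1.94 ± 0.55 (adjusted p = 0.0384). Cdk1 had 1.79 ± 0.45 (adjusted p = 0.0231), Rrm1 1.24 ± 0.36 (adjusted p = 0.0358), Pcna 1.12 ± 0.30 (adjusted p = 0.0246) and Plk1 1.09 ± 0.24 (adjusted p = 0.0111). Gmnn (1.25 ± 0.24, adjusted p = 0.00506) and Tyms (1.32 ± 0.28, adjusted p = 0.00873) were called in every fit that left out a library. The count rose to 35 without knockout-labelled Il1f5 library 3, where 2703 of all 18253 genes were called higher. It was 22 without knockout-labelled Il1f5 library 2 (1854 of all 18166 genes) and 5 without library 1 of that group (1627 of all 18157 genes). It was 7 without any wild-type library of that line (1439 of 18206, 1323 of 18261 and 1824 of 18210 genes). The count also fell without Il1f9+/+ library 2 or either Il1f9-/- library, in fits that left 1 library in a group.

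The groups labelled wild type of the 2 lines were also compared in colitis, and each enters the comparisons above. The fitted differences of Il1f9+/+ from Il1f5+/+ were below 0 for all 39 genes, with a median of -0.69 (all genes 0.0117), and 38 did not overlap, the exception being Bub1 (23.0% of all genes were lower without overlap). With edgeR 0 of the 39 genes were called higher or lower, where 3.25% of all genes were called higher and 1.68% lower, while 21 had an unadjusted p below the threshold (25.2% of all genes had) and DESeq2 called 15 lower (5.32% of all genes). The adjusted p was smallest for Mcm4 (-0.68 ± 0.19, adjusted p = 0.0691), and Plk1 had -0.55 ± 0.17 (adjusted p = 0.0893). The Il1f9-/- libraries, at 5.37 and 5.64 mean log2 CPM of the mitosis genes, were near the Il1f5+/+ libraries (5.68 to 5.70), and the Il1f9+/+ libraries were at 5.27 and 4.71. Without Il1f9+/+ library 1, 6 genes were called lower. Markers differed between these groups and their part was not tested. The macrophage markers summed to 57.3 to 66.2 CPM in Il1f5+/+ and 115 to 168 CPM in Il1f9+/+ (3 of 3 higher). The endothelial markers summed to 104 to 109 against 150.2 to 201 CPM (3 of 5 higher) and the fibroblast markers to 1681 to 1862 against 2400 to 3431 CPM (4 of 6 higher). The epithelial markers were lower, at 13018 to 13874 against 9756 to 12493 CPM (0 of 8 called, 8 below 0). Sums were higher, with 0 called, for the neutrophil (160 to 369 against 533 to 1101 CPM), enteric neuron and glia (18.2 to 28.0 against 29.8 to 42.7 CPM) and T cell lists (11.3 to 16.1 against 17.8 to 29.6 CPM). Those of the crypt stem cell, smooth muscle and B cell lists overlapped.

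**Figure D3:**
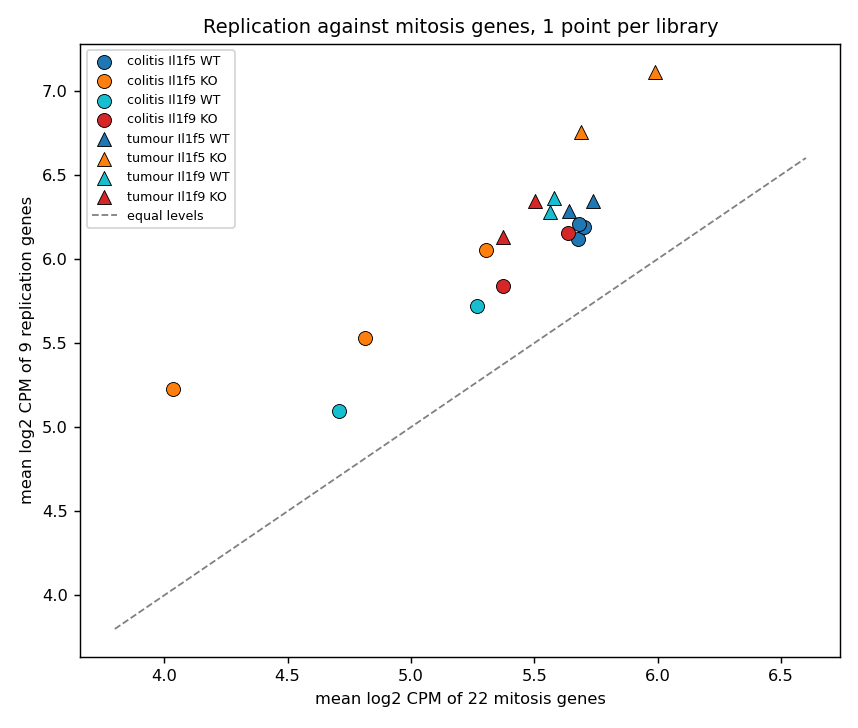
Mean log2 CPM of the 9 replication genes (vertical) against that of the 22 mitosis genes (horizontal), 1 point per library; circles are colitis, triangles tumours, and the dashed line marks equal levels. The colitis libraries labelled Il1f5 KO reach furthest left, to 4.04, and the tumour libraries so labelled stand highest, at 6.75 and 7.11.

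In tumours 0 genes passed between the libraries labelled Il1f5-/- and Il1f5+/+, and the smallest adjusted p was 0.0693, for Mcm2. The fitted differences of all 9 replication genes were above 0, with a median of 0.59 (all genes 0.0061), and 8 did not overlap, where 33.8% of all genes were higher without overlap. Of the 22 mitosis genes 14 were above and 8 below 0. With edgeR 0 of the 39 genes passed in either direction, where 0.0112% of all genes were called higher and 0.0168% lower. 27 of the 39 had an unadjusted p below the threshold (23.0% of all genes had), and DESeq2 called 8 higher (3.95% of all genes) and 1 lower (3.21%). The edgeR test took its spread from all 8 tumour libraries, the unlike Il1f9-/- pair among them. With only the 2 groups compared, 450 of all 17260 genes were called higher and 576 lower, and some of the 39 genes passed.

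Mcm2 was at 70.5 and 64.4 CPM in the wild type and at 144 and 114 CPM in libraries labelled Il1f5-/-. Both knockout-labelled libraries were above every other library of the series. The difference was 0.92 ± 0.16 (adjusted p = 0.0693). Mcm5 was at 69.3 and 69.6 CPM against 163 and 117 CPM (0.99 ± 0.19, adjusted p = 0.0763) and Mcm3 at 62.9 and 66.1 CPM against 132 and 100.5 CPM (0.83 ± 0.16, adjusted p = 0.0763), again the highest pairs of the series. Rrm1 differed least of the replication genes, at 112 and 122 CPM against 135 and 111 CPM (0.06 ± 0.15, adjusted p = 0.839), and its groups overlapped. Pcna had 0.47 ± 0.15 (adjusted p = 0.117).

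The loading factor Cdt1 was at 28.5 and 33.1 CPM in the wild type and 66.3 and 45.1 CPM in libraries labelled Il1f5-/- (0.84 ± 0.21, adjusted p = 0.0821). E2f1 was at 14.4 and 15.1 CPM against 27.5 and 23.3 CPM (0.77 ± 0.24, adjusted p = 0.115). Both sat above their wild types in both libraries. Ccne1 had 0.68 ± 0.29 (adjusted p = 0.199), Ccne2 0.22 ± 0.24 (adjusted p = 0.613) and Gmnn -0.08 ± 0.16 (adjusted p = 0.806).

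Among mitosis genes Cenpf was lowest, at 48.3 and 49.1 CPM in the wild type and 30.1 and 26.8 CPM in libraries labelled Il1f5-/- (-0.79 ± 0.17, adjusted p = 0.0794). The spindle motor Kif11 was at 59.99 and 64.7 CPM against 48.6 and 40.4 CPM (-0.50 ± 0.16, adjusted p = 0.123), and Cenpe had -0.49 ± 0.17 (adjusted p = 0.133) and Mki67 -0.39 ± 0.17 (adjusted p = 0.202). On the other side, Cdc20 was at 46.5 and 50.9 CPM against 95.9 and 67.1 CPM (0.73 ± 0.19, adjusted p = 0.0858), and the kinase Aurkb was at 32.0 and 35.0 CPM against 64.6 and 46.6 CPM (0.72 ± 0.18, adjusted p = 0.0839). Foxm1 had 0.59 ± 0.18 (adjusted p = 0.109) and Ube2c 0.63 ± 0.20 (adjusted p = 0.113). The 8 genes below 0 and 12 of the 14 above 0 did not overlap between groups, each with 2 libraries a side (29.9% of all genes were lower and 33.8% higher without overlap). Replication minus mitosis was 0.62 ± 0.03 in the wild type and 1.09 ± 0.04 in libraries labelled Il1f5-/- (SD, n = 2 each).

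Gene length moved with this split. The 5 longest of the 39 genes, those over 8000 bases in the deposited tables, were Cenpe, Top2a, Mki67, Rrm1 and Cenpf, and their differences ran from -0.79 to 0.06. The 15 genes of 2000 to 4000 bases ran from 0.22 to 0.99. The same slope was present over all protein-coding genes, with a median of 0.29 under 2000 bases and -0.19 over 8000 bases, and a Spearman correlation of -0.29 over 14712 genes (-0.42 over the 39). Within 2000 to 4000 bases the 5 replication genes had a median of 0.52 and the 6 mitosis genes 0.58, and within 4000 to 8000 bases the 3 replication genes had 0.69 and the 10 mitosis genes -0.0082. The part of length in the difference between the roles was not tested.

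**Figure D4:**
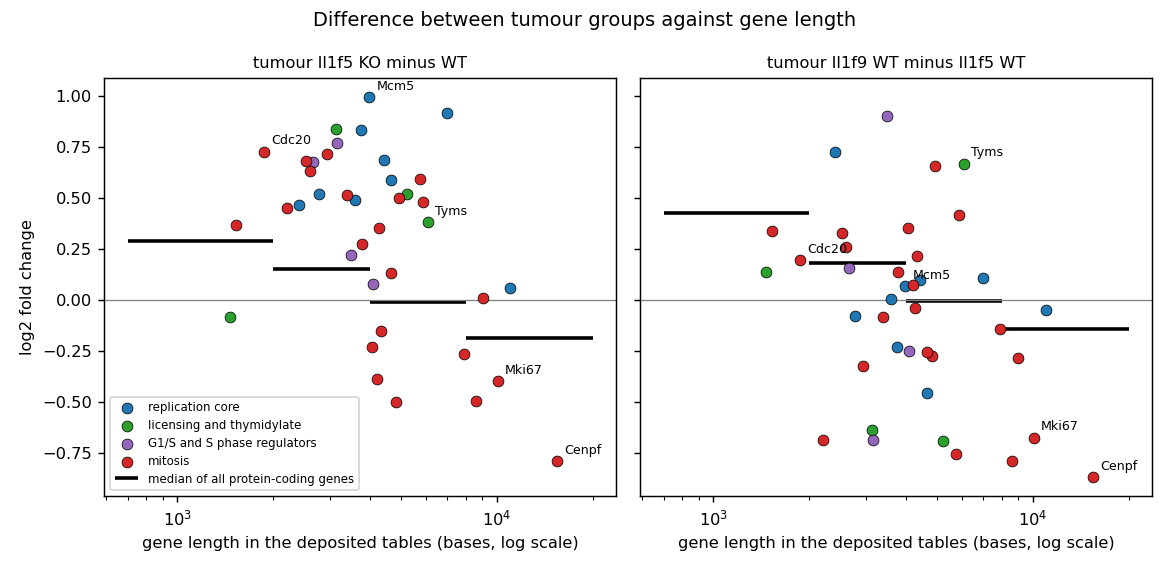
Log2 fold change of the 39 genes (points, coloured by role) against gene length on a log axis in 2 tumour comparisons; black bars are the medians of all protein-coding genes in 4 length classes. In both panels the bars step down with length, and Cenpf, the longest gene, has the lowest value.

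Crypt stem cell markers summed to 489 to 659 CPM in the wild-type tumours of this line and 776 to 935 CPM in libraries labelled Il1f5-/-. Epithelial markers summed to 9913 to 11382 against 11875 to 12989 CPM, with 0 of 5 and 0 of 8 called. The crypt stem cell markers split, with 3 above and 2 below 0, from -1.44 to 1.16. So did the epithelial markers, with 6 above and 2 below 0, from -0.88 to 0.62. Sums were lower without overlap for the fibroblast (1029 to 1287 against 867 to 984 CPM) and B cell lists (9.38 to 14.2 against 3.95 to 9.14 CPM). They were higher for the neutrophil (218 to 239 against 308 to 373 CPM) and smooth muscle lists (220 to 228 against 245 to 293 CPM). The enteric neuron and glia sums were low, at 3.81 to 6.25 against 6.71 to 7.98 CPM. Those of the T cell, macrophage and endothelial lists overlapped. The part of these markers was not tested. Among other replication genes 39 of 52 were above 0 (median 0.38), with Uhrf1 at 0.85 ± 0.15 (adjusted p = 0.0693) and Lig1, the DNA ligase of replication, at 0.93 ± 0.18 (adjusted p = 0.0763). Other mitosis genes were 33 above and 30 below 0 (median 0.08). Of the regulators, Ccnd1 had 0.94 ± 0.20 (adjusted p = 0.0792), Mybl2 (B-Myb) 1.05 ± 0.25 (adjusted p = 0.0815) and Cdkn2a, the p16 and p19Arf locus, 2.07 ± 0.31 (adjusted p = 0.0671). With edgeR 0 genes of these lists were called.

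Between Il1f9-/- and Il1f9+/+ tumours the fitted differences of these genes ran from -0.40 to 0.29, and 33 of 39 were below 0. With edgeR 0 of 39 were called (0.00560% of all genes higher, 0.0112% lower), 1 had an unadjusted p below the threshold (8.70% of all genes had), DESeq2 called 0 (0.459% of all genes higher and 0.459% lower), and the median was -0.13. Without Il1f9-/- library 1, 54 of all genes were called higher and 25 lower, and without library 2, 79 and 18, with 0 of the 39 genes in each. The gene with the low unadjusted p was Bub1b, a spindle checkpoint kinase, with -0.40 ± 0.14 (adjusted p = 0.525). Its partner Bub1 had -0.35 ± 0.17 (adjusted p = 0.599), Top2a, the topoisomerase that untangles chromosomes, -0.27 ± 0.15 (adjusted p = 0.651), Cdk1 -0.27 ± 0.16 (adjusted p = 0.676) and Kif20a -0.27 ± 0.17 (adjusted p = 0.688). In the replication core Mcm4 had -0.22 ± 0.15 (adjusted p = 0.699), Rrm1 -0.20 ± 0.15 (adjusted p = 0.74), Mcm3 -0.20 ± 0.16 (adjusted p = 0.755) and Pcna -0.15 ± 0.15 (adjusted p = 0.807). Mki67 had 0.01 ± 0.17 (adjusted p = 1), and the G1/S genes had -0.12 ± 0.29 (Ccne1, adjusted p = 0.932), -0.24 ± 0.24 (Ccne2, adjusted p = 0.805) and 0.29 ± 0.25 (E2f1, adjusted p = 0.771). Pcna was at 264 and 289 CPM in the wild type and 231 and 274 CPM in Il1f9-/-, which overlapped. The mean log2 CPM was 6.32 ± 0.06 and 6.24 ± 0.15 for the replication core and 5.57 ± 0.01 and 5.44 ± 0.09 for mitosis (SD, n = 2 each).

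For the tumours the difference between the lines' differences was called for 0 of 39 genes with edgeR, where 0.0448% of all genes were called higher and 0.0336% lower; 17 had an unadjusted p below the threshold (17.2% of all genes had) and DESeq2 called 2 lower (1.60% of all genes). The 9 replication genes were all below 0, by a median of -0.70, and Mcm2 had -1.04 ± 0.23 and Mcm3 -1.03 ± 0.22 (both adjusted p = 0.104). With the Il1f5 labels turned, again 0 were called and these values were 0.80 and 0.64. Without Il1f9-/- tumour library 2, 1 gene was called lower. The wild-type tumours differed between lines: 4 genes were higher in Il1f9+/+ (16.8% of all genes) and 7 lower (11.7% of all genes). Pcna, Tyms, Ccne2 and Cdk1 were higher, by 0.73 ± 0.15 (adjusted p = 0.0083), 0.67 ± 0.20 (adjusted p = 0.0348), 0.90 ± 0.24 (adjusted p = 0.0229) and 0.66 ± 0.16 (adjusted p = 0.0164). Cenpf, Cenpe, Foxm1, Plk1, Mki67, Mcm6 and Cdc6 were lower, led by Cenpf at -0.87 ± 0.17 (adjusted p = 0.00744) and Cenpe at -0.79 ± 0.17 (adjusted p = 0.01).

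No call among these was kept in every fit that left out 1 library. Leaving out Il1f5+/+ library 1 or 2 left 0 and 1 higher and 0 lower, leaving out Il1f9+/+ library 1 left 2 higher and 0 lower, and leaving out Il1f9+/+ library 2 left 1 higher and 3 lower. Length moved with them too, with a Spearman correlation of -0.23 over 14712 genes and -0.33 over the 39 genes. The epithelial markers summed to 9913 to 11382 CPM in Il1f5+/+ tumours and 17925 to 21402 CPM in Il1f9+/+ tumours (6 of 8 higher). The neutrophil markers summed to 218 to 239 against 1595 to 3650 CPM (2 of 3 higher), and the crypt stem cell markers to 489 to 659 against 283 to 343 CPM (2 of 5 lower). The part of length and markers was not tested.

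**Figure D5:**
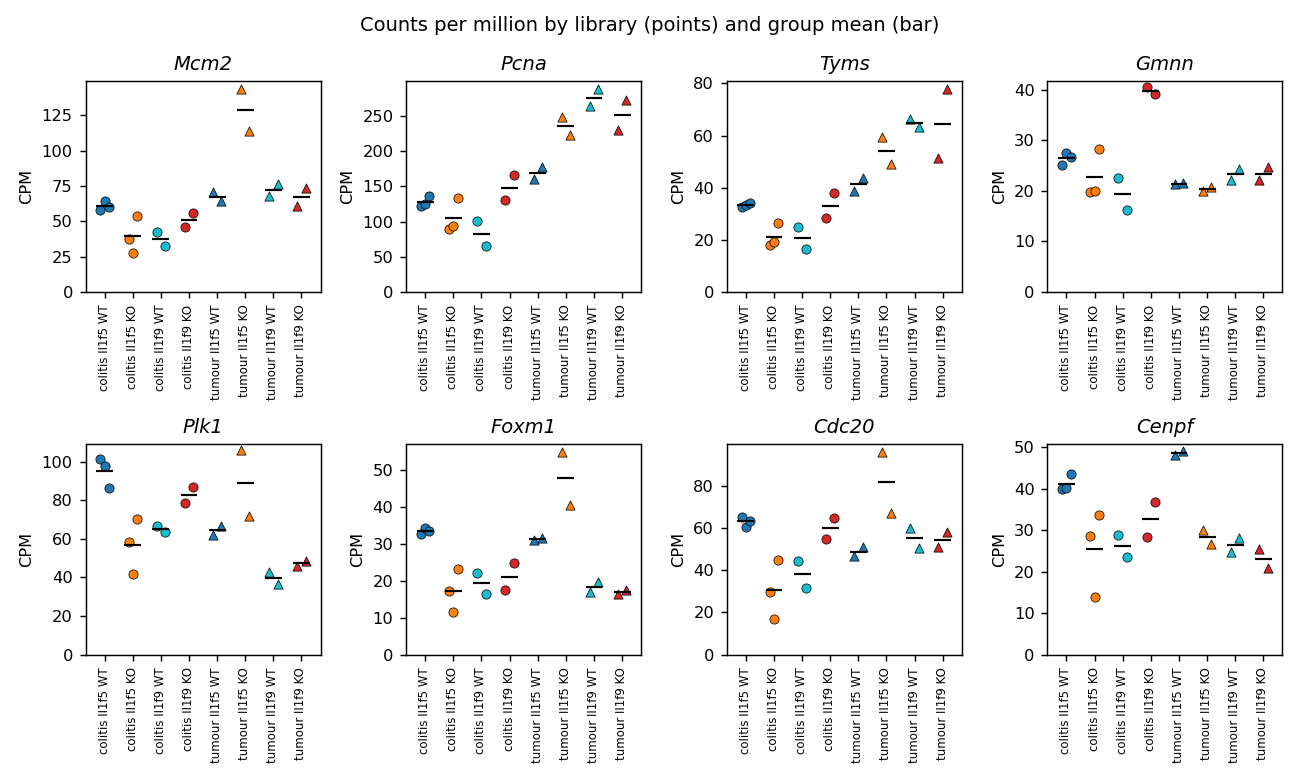
CPM of 8 of the genes in each library (points; circles colitis, triangles tumours) with the group mean as a bar, each axis starting at 0. Mcm2 stands highest in tumour Il1f5 KO, Gmnn in colitis Il1f9 KO, and Pcna and Tyms are higher in wild-type tumours than in wild-type colitis, while Plk1 is not.

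Tumours were set against colitis within the wild types, with equal weight to each line. Pcna, Mcm7, Tyms and Ccne2 were among the genes that were higher in tumours, and Plk1 was lower. In all, 14 of the 39 genes were higher (30.1% of all genes tested were) and 1 was lower (31.1% of all genes were). The share called higher among the 39 genes was near that of all genes, and the share called lower was far below it. Of the replication core 6 of 9 rose, of the mitosis genes 6 of 22. Tissue and treatment course cannot be told apart here.

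Pcna was at 65.3 to 136 CPM over the 5 wild-type colitis libraries, with a median of 122, and at 161, 177, 264 and 289 CPM in the 4 wild-type tumours. No colitis library reached a tumour. Pcna rose by 1.07 ± 0.14 (adjusted p = 6.11e-06), Mcm7 by 0.99 ± 0.17 (adjusted p = 0.000149) and Rrm1 by 0.70 ± 0.16 (adjusted p = 0.00126). Tyms rose by 0.97 ± 0.15 (adjusted p = 5.6e-05) and Ccne2 by 0.99 ± 0.18 (adjusted p = 0.000154). Ccne1 had 0.56 ± 0.24 (adjusted p = 0.0539) and E2f1 0.27 ± 0.19 (adjusted p = 0.234).

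In mitosis, Nusap1, a spindle-associated protein, rose by 0.95 ± 0.18 (adjusted p = 0.000395), Cdk1 by 0.91 ± 0.20 (adjusted p = 0.00112), Cenpa by 0.69 ± 0.19 (adjusted p = 0.00659) and Ccnb1 by 0.74 ± 0.23 (adjusted p = 0.0122). Plk1 fell, by 0.64 ± 0.14 (adjusted p = 0.00081). Plk1 was at 101, 97.5, 86.3, 66.6 and 63.3 CPM in colitis and at 62.0, 66.7, 42.6 and 36.5 CPM in tumours, so the low end of colitis touched the high end of tumours. Mki67 had 0.01 ± 0.18 (adjusted p = 0.975). 10 of the 14 genes called higher were called in each fit that left out a library; Mcm5 (without any library but Il1f9+/+ colitis library 1), and Ccnb1, Bub1 and Kif20a (without Il1f9+/+ colitis library 2) were not, and without that library 10 genes were called higher. In the Il1f9 line alone, chosen after seeing the data because the Il1f5 labels are in doubt, 16 genes were higher and 1 lower. Of all 19514 genes 5586 were higher and 5782 lower in that fit. Replication minus mitosis was 0.23 higher in tumours, from group means of 0.49 and 0.42 in colitis and 0.62 and 0.75 in tumours.

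Markers differed widely between the tissues and their part was not tested. The crypt stem cell markers were at 48.9 to 81.3 CPM in wild-type colitis and 283 to 659 CPM in wild-type tumours (4 of 5 higher), and the smooth muscle markers at 1354 to 2450 against 83.8 to 228 CPM (6 of 6 lower). Up to 3 of 5 enteric neuron and glia markers were at 0 in tumours. Of the other lists, 26 of 52 replication genes rose and 3 fell, and 24 of 63 mitosis genes rose and 2 fell. Among all genes 30.1% were called higher and 31.1% lower. Orc4, of the origin recognition complex, rose by 1.13 ± 0.10 (adjusted p = 7.05e-08), Kif18a, a kinesin of chromosome alignment, by 1.39 ± 0.19 (adjusted p = 1.31e-05) and Cdk4, the cyclin D kinase, by 1.503 ± 0.12 (adjusted p = 2.51e-08).

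Between knockout-labelled tumours and knockout-labelled colitis, 24 of the 39 genes were higher (32.7% of all genes) and 1 lower (30.7% of all genes), so the share called higher was above the background. In the Il1f9 line alone it was not: 6 genes were higher and 3 lower, where 5114 and 4935 of all 19514 genes were. Without Il1f9-/- tumour library 1 or 2, 25 and 21 genes were higher. Over both lines the replication core had 7 of 9 higher, among them Mcm7 at 1.17 ± 0.17 (adjusted p = 2.76e-05), Mcm5 at 1.11 ± 0.19 (adjusted p = 0.000187) and Mcm2 at 1.04 ± 0.15 (adjusted p = 2.96e-05), and mitosis had 12 of 22. Gmnn was the gene that fell, by 0.46 ± 0.12 (adjusted p = 0.00357). Tyms rose most clearly, by 1.16 ± 0.15 (adjusted p = 8.36e-06). Without Il1f9-/- colitis library 1, 16 genes were higher, and without knockout-labelled Il1f5 colitis library 2, 2 were lower.

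The difference of each line was also set between tissues. With the Il1f5 labels turned, each Il1f5 value here changes sign. For Il1f5 as labelled the tumour difference exceeded the colitis difference for 38 of 39 genes, by a median of 1.06, and 19 were called (10.8% of all genes higher, 7.23% lower, with 0 of the 39 lower). They were 7 replication genes, Tyms, Cdt1 and 10 mitosis genes. Mcm2 had 1.54 ± 0.30 (adjusted p = 0.00501), Mcm5 1.70 ± 0.37 (adjusted p = 0.00946), Foxm1 1.55 ± 0.32 (adjusted p = 0.0068), Plk1 1.21 ± 0.26 (adjusted p = 0.00778) and Cdc20 1.79 ± 0.42 (adjusted p = 0.0128), while Cenpf had -0.07 ± 0.36 (adjusted p = 0.913). Gene length moved with these values, with a Spearman correlation of -0.21 over 15655 protein-coding genes and -0.34 over the 39 genes, and its part was not tested. Mcm2 alone was called in each fit that left out a library. The count was 10 without knockout-labelled colitis library 1, 11 without wild-type colitis library 2, and 31 without knockout-labelled colitis library 3. Of all genes 1381 of 19418, 1378 of 19501 and 2272 of 19493 were called higher in these fits. The count also fell without tumour library 1 labelled Il1f5-/- or tumour Il1f5+/+ library 1 or 2, in fits that left 1 library in a group.

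For Il1f9 all 39 genes had a lower difference in tumours than in colitis, by a median of -0.61, and 1 was called lower (0.820% of all genes) and 0 higher (1.65% of all genes). The called gene was Gmnn, at -1.02 ± 0.25 (adjusted p = 0.0458 with edgeR). Pcna had -0.97 ± 0.29 (adjusted p = 0.0813) and Cdk1 -1.28 ± 0.41 (adjusted p = 0.112). Length moved with these values too, with a Spearman correlation of 0.15 over 15655 protein-coding genes and 0.35 over the 39 genes, and its part was not tested. Gmnn was at 22.1 and 24.4 CPM in Il1f9+/+ tumours and 22.2 and 24.7 CPM in Il1f9-/- tumours, which overlapped. It was called without Il1f9+/+ colitis library 1 or Il1f9-/- tumour library 2, with counts of 2 and 1, and 0 genes were called without any of the other 6 libraries of this line.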

How the data were processed

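RNA was sequenced from 18 libraries of distal colon in colitis and of colorectal tumours. The authors deposited raw counts and FPKM per gene in 3 tables (10 colitis libraries, 4 tumour libraries of the Il1f5 line and 4 of the Il1f9 line), made with Trim Galore 0.6.4, HISAT2 2.0.5 and featureCounts 2.0.0, per the submitters' processing notes. No source used here names the genome build. Counts were tested with edgeR 4.0.16 (R 4.3.3): TMM scaling, filterByExpr, group means per tissue (10 colitis or 8 tumour libraries; all 18 between tissues), quasi-likelihood F tests and Benjamini-Hochberg adjustment over all genes tested. DESeq2 1.42.0 was an alternative. CPM used TMM factors over all 18 libraries, and log2 CPM a prior count of 2. The deposited FPKM were used only to order genes by level, across the 3 tables. How the authors counted reads shared by near-identical copies was not stated. Same-numbered replicates of knockout and wild type did not deviate together (correlations -0.127 to -0.0019), so no pairing was fitted in the main test. Replicates differed by more than sampling noise.

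The members, roles and wider lists were chosen with earlier results of these data known. Full statistics were given for the 3 replication core and 5 mitosis genes with the smallest unadjusted p in each knockout comparison and in the wild-type tissue comparison, and for Mki67, Pcna, Ccne1, Ccne2 and E2f1; wider lists were given as counts with up to 4 examples, and other genes were named by values or counts. The fit was tested on simulated data. Alternatives were no filter, DESeq2, DESeq2 size factors, other sets of libraries in the fit, a replicate block, and leaving out each library; turned Il1f5 labels and the Il1f9 line alone were added after seeing the data.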

Additional observations from a re-analysis of the deposited data

Results flagged for a closer look

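Tests of a difference between differences gave calls in 3 cases, with directions as the Il1f5 libraries are labelled. In colitis, the Il1f9 difference was called above that of the libraries labelled Il1f5-/- for 19 of the 39 genes, where 12.0% of all genes were called higher. With the Il1f5 labels turned, chosen after seeing the data, 1 gene was called and the median over the 39 genes was -0.20. The values that follow are as labelled. In log2 units the gap was 2.12 for Birc5, 1.79 for Cdk1, 1.32 for Tyms, 1.25 for Gmnn, 1.24 for Rrm1, 1.12 for Pcna and 1.09 for Plk1. For Il1f5, the tumour difference was called above the colitis difference for 19 genes, where 10.8% of all genes were called higher. This gap was 1.79 for Cdc20, 1.70 for Mcm5, 1.55 for Foxm1, 1.54 for Mcm2 and 1.21 for Plk1, and with the labels turned these values change sign. For Il1f9, 1 gene was called with a lower difference in tumours than in colitis, Gmnn at -1.02, where 0.820% of all genes were called lower. The rule for a single library far from the others needs at least 4 in a group and was not applied. The pair of Il1f9-/- tumour libraries differed most within a group, with a chi-square per gene of 95.5.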

How the results depend on the processing

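The counts of called genes moved with the filter, the tool and single libraries, while directions mostly held. Over the settings planned, all changes of sign were in values of single genes, among them Ccne2 in tumour Il1f9, reported at -0.24 ± 0.24. For the libraries labelled Il1f5-/- in colitis, 10 genes were lower as reported, 4 with no filter on low counts and 30 with DESeq2. With all 18 libraries in 1 fit 23 were lower. Of all genes tested, 2015 of 18299, 1892 of 32481, 2292 of 18299 and 1266 of 19514 were lower in these fits. For colitis Il1f9, 3 were higher as reported, 7 with DESeq2 and 7 with only the 2 groups compared. Of all genes, 1754 of 18299, 2041 of 18299 and 1211 of 17362 were higher in these fits. For tumour Il1f5, 0 were called as reported. With no filter 11 were higher and 1 lower, with DESeq2 8 and 1, and with only the 2 groups compared 4 and 1. With all 18 libraries in 1 fit 4 were higher, a share near that of all genes. Of all genes, 1226 were higher and 717 lower of 31234 with no filter, and 705 and 574 of 17859 with DESeq2. They were 450 and 576 of 17260 with only the 2 groups, and 1754 and 1155 of 19514 with all 18 libraries. The difference between the lines' colitis differences was called for 19 genes, 6 with no filter and 31 with DESeq2. Among all genes, 2189 of 18299, 2089 of 32481 and 2513 of 18299 were higher in these fits. That of the tumours was lower for 5 genes with no filter and 2 with DESeq2 (730 of all 31234 and 285 of all 17859 genes). Between the colitis wild types 4 were lower with no filter and 15 with DESeq2 (735 of all 32481 and 973 of all 18299 genes). Between tissues, the Il1f5 difference was called for 19 genes and for 30 with no filter, where 2113 of 19514 and 2282 of 34692 of all genes were higher. The Il1f9 difference was lower for 1 gene, 9 with no filter and 3 with DESeq2. Among all genes 160 of 19514, 631 of 34692 and 606 of 19514 were lower in these Il1f9 fits. Replication minus mitosis with the wider replication group was 0.41 for tumour Il1f5 (0.47 as reported) and 0.17 between the wild-type tissues (0.23 as reported). With the Il1f5 labels turned, chosen after seeing the data, the difference between the lines in colitis was called higher for 1 gene and changed sign to -0.26 for Rrm1 and -0.39 for Plk1, and in tumours it changed sign to 0.80 for Mcm2, 0.64 for Mcm3, 0.23 for Cdk1 and 0.43 for Ube2c. With the Il1f9 line only, also chosen so, 6 were higher and 3 lower between knockout tissues (24 and 1 as reported). The cause of these moves was not tested.

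With the replicate number as a replicate block, 17 genes were lower in colitis libraries labelled Il1f5-/- (1490 of all 18299 genes were). For the Il1f9 difference between tissues 0 were called, where 174 of all 19514 genes were higher and 58 lower. Same-numbered libraries share only a number.

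Leaving out each library gave 1 to 36 genes lower for colitis Il1f5, 1 to 9 higher for colitis Il1f9, 2 to 35 higher for the difference between the lines in colitis and 0 to 1 lower in tumours. It gave 0 to 6 lower between the colitis wild types, 0 to 2 higher and 0 to 3 lower between the tumour wild types, and 1 to 2 lower between knockout tissues. The difference between tissues ranged from 1 to 31 higher for Il1f5 and from 0 to 2 lower for Il1f9. E2f1 in colitis Il1f5 ranged from -0.17 to 0.19. In tumour Il1f9, Mki67 ranged from -0.17 to 0.21 (-0.0108 with no filter), Ccne1 from -0.37 to 0.17 and Ccne2 from -0.55 to 0.14. Mki67 between wild-type tissues ranged from -0.10 to 0.12. The number of all genes called moved in the fits that left out a library as well, for colitis Il1f5 from 826 of 18206 to 2537 of 18253 lower. Where a group was left with 1 library, it was assumed to vary like the others. With 2 or 3 libraries in a group, small differences were not detectable.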
